A study of Mus musculus with 8 samples.

Results

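The mitochondrial genome of the mouse carries 37 genes, and their RNA was followed here in bone marrow-derived macrophages, which are macrophages grown in culture from mouse bone marrow. The genes were chosen by symbol, as all those that start with mt-, and comprise 2 rRNA genes, 13 mRNA genes and 22 tRNA genes. All 37 were present among the 55401 genes of the deposited count table, and all 37 were among the 17470 genes with enough counts to be tested. The cells came from mice in which both Mettl3 alleles were floxed, with or without the Lyz2-Cre driver. METTL3 is the enzyme that writes N6-methyladenosine on RNA made in the nucleus, and Lyz2-Cre is active in myeloid cells. There were 4 groups of 2 libraries each. Lyz2-Cre-Mettl3fl/fl cells that received LPS and nigericin are called stimulated KO, and Mettl3fl/fl cells with the same treatment are called stimulated WT. The same genotypes with PBS in place of the stimuli are called PBS KO and PBS WT. LPS, a bacterial ligand of Toll-like receptor 4, was used at 50 ng/ml overnight. Nigericin, a potassium ionophore that triggers the NLRP3 inflammasome, came next at 10 µM; the sample labels give 3 h for it and the series text names a shorter exposure as well. No source used here gives the age or sex of the mice, or says whether paired libraries stem from different cultures or mice. The p-values therefore reflect library-to-library spread, and that spread may be technical.

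Mitochondrial DNA is transcribed from both strands into long RNAs that cover many genes at once. In most places tRNA genes sit between the other genes, and their excision by RNase P at one end and ELAC2 at the other frees the flanking rRNAs and mRNAs. The rRNAs build the mitochondrial ribosome, and all 13 mRNAs encode membrane subunits of the respiratory chain and of ATP synthase, with the remaining subunits supplied by nuclear genes.

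The layout of the rRNA genes shows how tightly the transcript is packed, since mt-Rnr1, mt-Tv, mt-Rnr2, mt-Tl1 and mt-Nd1 abut with no base between them. The 2 junctions are shown with the tRNA gene in capitals, 5′ to 3′ on the plus strand (GRCm38, joined from GENCODE M21 transcripts).
mt-Rnr1, mt-Tv and mt-Rnr2, chrM:995-1123: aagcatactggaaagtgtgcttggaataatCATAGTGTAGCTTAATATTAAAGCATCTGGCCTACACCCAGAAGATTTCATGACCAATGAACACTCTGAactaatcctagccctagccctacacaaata
mt-Rnr2, mt-Tl1 and mt-Nd1, chrM:2646-2780: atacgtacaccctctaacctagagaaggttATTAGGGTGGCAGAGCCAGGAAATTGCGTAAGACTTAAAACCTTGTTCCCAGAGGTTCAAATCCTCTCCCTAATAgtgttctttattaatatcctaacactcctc
The tRNA results below turn on 5 genes that lie side by side between mt-Nd2 and mt-Co1, of which mt-Tw is on the plus strand and the other four are on the minus strand. Their GENCODE M21 sequences are shown with the anticodon in capitals, each 5′ to 3′ on its own strand.
mt-Tw (tryptophan), chrM:4950-5016, plus: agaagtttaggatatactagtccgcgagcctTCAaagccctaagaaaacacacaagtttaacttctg
mt-Ta (alanine), chrM:5018-5086, minus: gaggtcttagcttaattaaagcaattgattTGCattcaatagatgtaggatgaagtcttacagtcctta
mt-Tn (asparagine), chrM:5089-5159, minus: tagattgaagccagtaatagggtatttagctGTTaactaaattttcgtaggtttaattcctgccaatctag
mt-Tc (cysteine), chrM:5192-5257, minus: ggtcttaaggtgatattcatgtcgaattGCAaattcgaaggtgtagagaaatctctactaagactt
mt-Ty (tyrosine), chrM:5260-5326, minus: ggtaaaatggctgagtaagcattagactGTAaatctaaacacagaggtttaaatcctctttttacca

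The libraries held 55032057 to 65487739 counts. Mettl3 was lower in both KO libraries than in both WT libraries under either treatment, with 9.08 and 7.87 CPM (counts per 1000000, scaled by TMM) in stimulated KO against 28.2 and 23.4 CPM in stimulated WT, and 5.63 and 6.33 CPM in PBS KO against 13.6 and 13.3 CPM in PBS WT. The macrophage markers fixed for the check were detected in every library, and their 12 genes summed to 42923 and 41761 CPM in stimulated KO, 63702 and 67039 CPM in stimulated WT, 56864 and 60159 CPM in PBS KO and 73613 and 77886 CPM in PBS WT. Lyz2, the locus of the Cre driver, was 1 of the 12, with 15405 and 14744 CPM in stimulated KO, 32222 and 34422 CPM in stimulated WT, 16776 and 17514 CPM in PBS KO and 32744 and 35400 CPM in PBS WT. The other 11 summed to 27519 and 27018 CPM in stimulated KO, 31480 and 32616 CPM in stimulated WT, 40088 and 42645 CPM in PBS KO and 40869 and 42485 CPM in PBS WT, so without Lyz2 the PBS genotypes overlapped and stimulated KO remained below stimulated WT.

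The 3 classes of mitochondrial RNA moved apart in stimulated KO cells, where the rRNA share of all counts was high and the mRNA share was low. The rRNA genes took 0.179 and 0.174% of counts in stimulated KO, 0.0507 and 0.0517% in stimulated WT, 0.0698 and 0.0741% in PBS KO and 0.0644 and 0.0722% in PBS WT. Both stimulated KO libraries were above all 6 others, and both stimulated WT libraries were below all 6 others. The ratio of the mean rRNA shares was 3.45 for stimulated KO over stimulated WT and 2.45 for stimulated KO over PBS KO. The 13 mRNAs took 2.17 and 1.66% of counts in stimulated KO, 2.52 and 2.81% in stimulated WT, 2.89 and 3.27% in PBS KO and 2.84 and 2.91% in PBS WT. Here the stimulated KO libraries were the lowest of the 8. The 22 tRNA genes took 0.00438 and 0.00452% in stimulated KO, 0.00314 and 0.00361% in stimulated WT, 0.00741 and 0.00871% in PBS KO and 0.00629 and 0.00705% in PBS WT, so all stimulated libraries were below all PBS libraries. Counts at tRNA genes do not separate excised tRNA from longer RNA that still holds it, here and in the tRNA results below. Within the mitochondrial counts alone, which needs no scaling between libraries, rRNA made up 7.60 and 9.48% in stimulated KO, 1.97 and 1.80% in stimulated WT, 2.35 and 2.21% in PBS KO and 2.21 and 2.41% in PBS WT. These counts leave out reads assigned to chromosome 1 copies of mRNA genes, described below. There were 12.1 and 9.52 mRNA counts per rRNA count in stimulated KO without the copies and 13.2 and 12.8 with them. With the copies the ratio was 59.2 and 64.0 in stimulated WT, 55.1 and 52.8 in PBS KO and 55.8 and 53.3 in PBS WT. In bulk RNA, fewer cells of a type and less RNA per cell cannot be told apart. No p is given for these sums, since 2 libraries against 2 cannot give a small exact p.

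**Figure D1:**
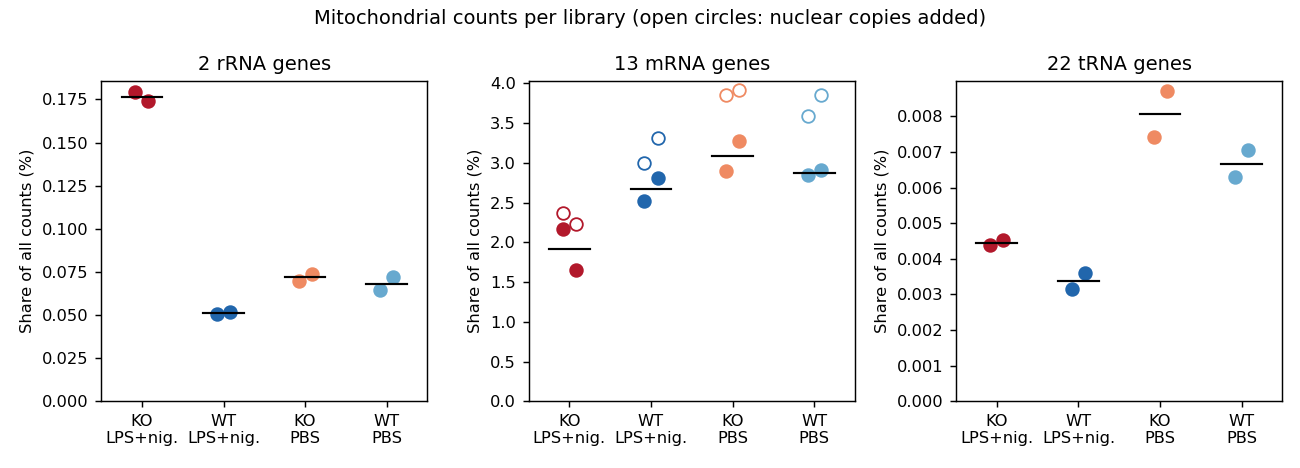
Share of all counts (percent, vertical axes) taken by the mitochondrial rRNA, mRNA and tRNA genes in each of the 8 libraries, by group. Each filled point is 1 library, open circles add the counts of chromosome 1 copies of mRNA genes, and each line is the mean of its group; the rRNA panel has the stimulated KO libraries at 0.179 and 0.174%, far above the rest, while in the mRNA panel they are the lowest.

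Of the 37 genes, 6 were higher and 6 lower in stimulated KO than in stimulated WT cells in edgeR's quasi-likelihood test at an adjusted p of 0.05, against 4.92% of all tested genes called in that comparison, 2.91% higher and 2.01% lower. The median log2 fold change was -0.21 over the 37 genes and -0.0045 over all tested genes. The higher genes were both rRNAs and 4 tRNAs, and all 6 lower genes were mRNAs. Only 2 were called higher, the rRNAs, when either stimulated KO library or stimulated WT replicate 1 was left out. Stimulation of KO cells raised 2 and lowered 16 of the 37, where 39.1% of all tested genes were called, 20.2% higher and 19.0% lower, with medians of -0.67 over the 37 genes and -0.033 over all genes. Stimulation of WT cells lowered 8 and raised 0, where 40.5% of all genes were called, 20.6% higher and 20.0% lower, with medians of -0.16 and -0.013. For that 0, DESeq2 and limma-voom also called 0, and 0 members were higher at an unadjusted p of 0.05 in edgeR. An edgeR fit of the WT libraries alone called 2 members higher.

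The rRNAs were the members that rose in stimulated KO cells. mt-Rnr1, the 12S rRNA of the small mitochondrial subunit (chromosome M, 70 to 1024, plus strand), had 867 and 832 CPM in stimulated KO, 181 and 198 CPM in stimulated WT, 303 and 313 CPM in PBS KO and 263 and 297 CPM in PBS WT. The stimulated KO libraries lay above all others and the stimulated WT libraries below all others. Its log2 fold change was 2.16 ± 0.08 for stimulated KO over stimulated WT (SE, adjusted p = 0.000416), which is 4.48-fold. It was 1.46 ± 0.08 for stimulated over PBS KO (adjusted p = 1.85e-05) and -0.56 ± 0.08 for stimulated over PBS WT (adjusted p = 0.0016). Stimulation thus moved this rRNA in opposite directions in the KO and WT cells. mt-Rnr2, the 16S rRNA of the large subunit (chromosome M, 1094 to 2675, plus strand), had 927 and 897 CPM in stimulated KO, 362 and 385 CPM in stimulated WT, 352 and 392 CPM in PBS KO and 353 and 407 CPM in PBS WT. Only the stimulated KO libraries stood apart, and the other 6 overlapped. Its log2 fold change was 1.29 ± 0.09 for stimulated KO over stimulated WT (adjusted p = 0.00151) and 1.29 ± 0.09 for stimulated over PBS KO (adjusted p = 5.59e-05), while stimulated over PBS WT gave -0.027 ± 0.091 (adjusted p = 0.843). All 5 of the called rRNA values named here were called in each of the 8 fits that left out 1 library.

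The ratio of the 2 rRNAs also differed between the groups. There were 1.07 and 1.08 counts of mt-Rnr2 per count of mt-Rnr1 in stimulated KO, 1.99 and 1.94 in stimulated WT, 1.16 and 1.25 in PBS KO and 1.34 and 1.37 in PBS WT. The groups did not overlap, with the highest ratio in stimulated WT and the lowest in stimulated KO. Per length, mt-Rnr1 reached 908 and 872 CPM per kb in stimulated KO and 190 and 208 CPM per kb in stimulated WT, and mt-Rnr2 reached 586 and 567 CPM per kb in stimulated KO and 229 and 243 CPM per kb in stimulated WT. The 69 bases of mt-Tv, the valine tRNA gene between them, had 14 and 15 counts in stimulated KO, 5 and 4 in stimulated WT, 1 and 5 in PBS KO and 1 and 2 in PBS WT. mt-Tf, the phenylalanine tRNA gene just before mt-Rnr1, had 11 and 16 counts in stimulated KO, 2 and 2 in stimulated WT, 5 and 8 in PBS KO and 3 and 5 in PBS WT. Both tRNA genes were highest in the stimulated KO libraries, and neither difference between stimulated KO and stimulated WT was called (adjusted p = 0.442 for mt-Tv and 0.182 for mt-Tf). Only the stimulated KO libraries took both genes past the low-count limit. That both were highest there was thus needed for them to be tested, and it adds no evidence.

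The levels of rRNA relative to mRNA depend on how the library was made, because mitochondrial rRNAs carry at most short tails and most mitochondrial mRNAs are polyadenylated, and no source used here says how the kit selected RNA. As a measured comparison, the annotated nuclear rRNA genes summed to 994 and 942 CPM in stimulated KO, 1219 and 1005 CPM in stimulated WT, 1002 and 949 CPM in PBS KO and 919 and 945 CPM in PBS WT. This sum over 354 genes, added after the data were seen, was not higher in stimulated KO than in stimulated WT. It cannot show how the mitochondrial rRNAs were captured, and the part of RNA selection in their levels was not tested. The annotated snRNA genes summed to 4.90 and 4.11 CPM in stimulated KO, 6.58 and 4.87 CPM in stimulated WT, 4.78 and 3.36 CPM in PBS KO and 4.43 and 3.44 CPM in PBS WT, and these groups overlapped.

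For stimulated KO over stimulated WT all 13 mRNAs had a negative log2 fold change, with a median of -0.86 against -0.0045 over all tested genes. Of the 13, 6 passed the test, where 2.01% of all tested genes were called lower. mt-Cytb, the cytochrome b subunit of complex III, had 967 and 926 CPM in stimulated KO, 1731 and 1928 CPM in stimulated WT, 2425 and 2325 CPM in PBS KO and 2330 and 2409 CPM in PBS WT. The PBS libraries overlapped, the stimulated WT libraries lay below them, and the stimulated KO libraries lay lowest. The log2 fold change of mt-Cytb was -0.95 ± 0.07 for stimulated KO over stimulated WT (adjusted p = 0.00166), -1.33 ± 0.07 for stimulated over PBS KO (adjusted p = 1.42e-05) and -0.37 ± 0.07 for stimulated over PBS WT (adjusted p = 0.00491).

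The 7 mRNAs of complex I, the NADH dehydrogenase, were all called lower in stimulated than in PBS KO cells. Of all tested genes, 19.0% were called lower there. mt-Nd5 had 877 and 803 CPM in stimulated KO, 1504 and 1477 CPM in stimulated WT, 1634 and 1636 CPM in PBS KO and 1662 and 1701 CPM in PBS WT. mt-Nd6, the one mRNA on the minus strand, had 291 and 275 CPM in stimulated KO, 497 and 530 CPM in stimulated WT, 560 and 547 CPM in PBS KO and 535 and 555 CPM in PBS WT. Both genes therefore had stimulated KO libraries well below every other library. Since no source used here says whether strand was kept, transcripts of mt-Nd6 and plus-strand RNA at its positions cannot be told apart. For stimulated KO over stimulated WT the log2 fold change was -0.83 ± 0.06 for mt-Nd5 (adjusted p = 0.00169) and -0.86 ± 0.06 for mt-Nd6 (adjusted p = 0.0017). mt-Nd2 fell in the same comparison by 0.81 ± 0.08 (adjusted p = 0.00418) and mt-Nd1 by 0.61 ± 0.09 (adjusted p = 0.0136) on the log2 scale. mt-Nd4 fell by 0.88 ± 0.12 (adjusted p = 0.0112). mt-Nd3 at -0.88 ± 0.23 (adjusted p = 0.085) and mt-Nd4l at -1.12 ± 0.27 (adjusted p = 0.0727) did not pass. In WT cells, where 20.0% of all tested genes were called lower, stimulation lowered mt-Nd4 by 0.40 ± 0.12 (adjusted p = 0.0319). The other 6 complex I mRNAs lay between -0.23 and 0.12 in WT with none called. The call of mt-Nd1 between stimulated genotypes was lost when either stimulated KO library was left out (p up to 0.0919, adjusted) and that of mt-Nd4 without stimulated WT replicate 2 (0.0525). The WT call of mt-Nd4 was lost without any one of the 4 WT libraries (up to 0.126).

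The mRNAs of complex IV, cytochrome c oxidase, and of complex V, ATP synthase, changed less clearly. mt-Co1 had 11502 and 9413 CPM in stimulated KO, 13134 and 13655 CPM in stimulated WT, 13033 and 13602 CPM in PBS KO and 12963 and 12965 CPM in PBS WT. Its log2 fold change was -0.35 ± 0.09 for stimulated over PBS KO (adjusted p = 0.0222), a call lost without either PBS KO library or stimulated KO replicate 2 (up to 0.101), and -0.36 ± 0.09 for stimulated KO over stimulated WT (adjusted p = 0.0845). mt-Co2 had 2148 and 1114 CPM in stimulated KO, mt-Co3 had 1996 and 941 CPM and mt-Atp8 had 598 and 292 CPM. In each of these genes the stimulated KO libraries differed about 2-fold from each other, far more than mt-Cytb or mt-Nd5 did. mt-Atp6 differed even more within groups, with 547 and 249 CPM in stimulated KO, 577 and 2955 CPM in stimulated WT, 431 and 2415 CPM in PBS KO and 491 and 1848 CPM in PBS WT. None of mt-Co2, mt-Co3, mt-Atp8 and mt-Atp6 was called in any comparison.

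**Figure D2:**
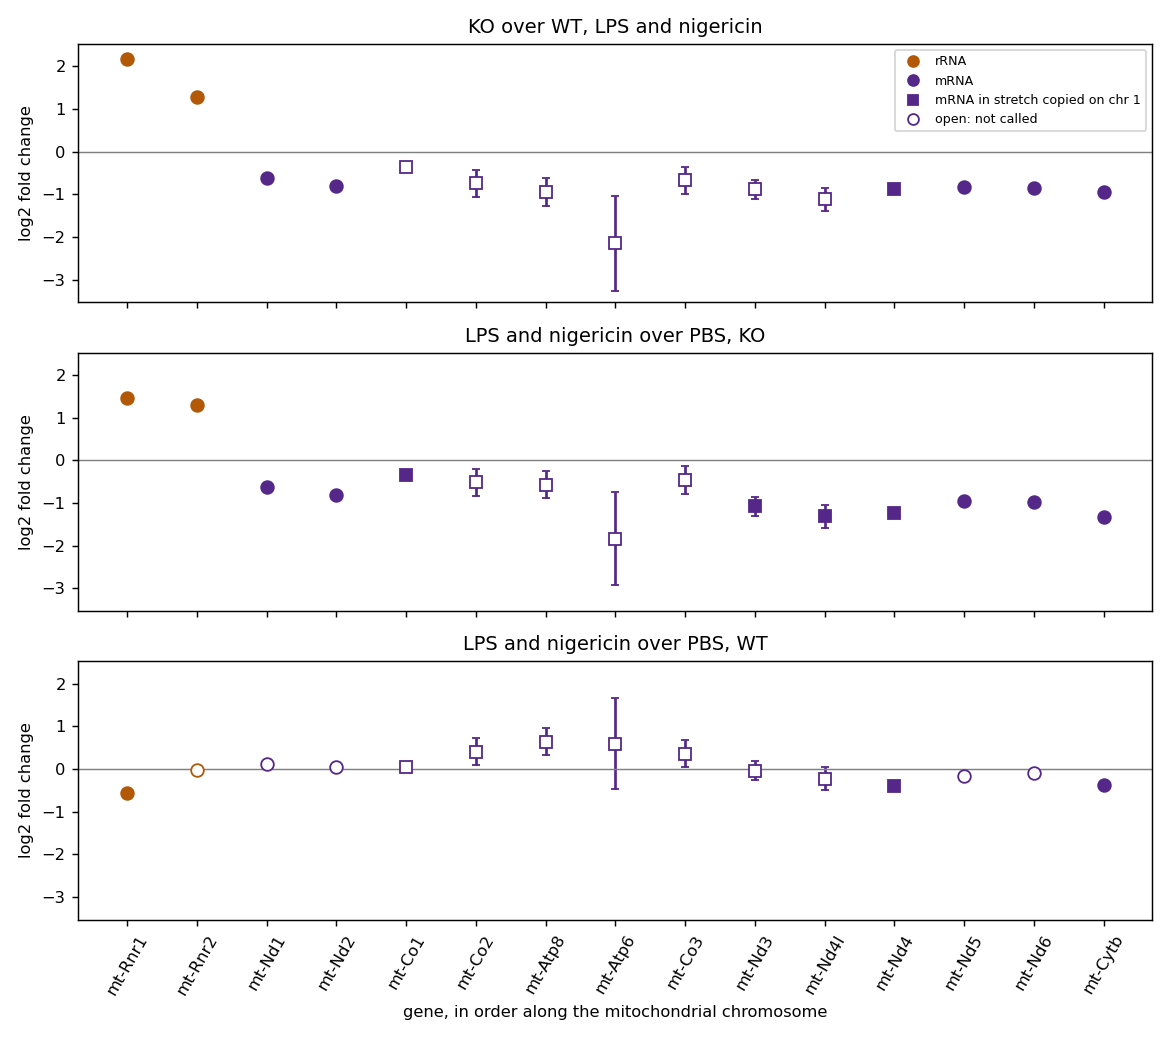
Log2 fold change (vertical axes) of the 2 rRNAs and 13 mRNAs in gene order along the mitochondrial chromosome, for stimulated KO over stimulated WT, stimulated over PBS KO and stimulated over PBS WT. Points are edgeR estimates with bars of 1 SE, filled where the adjusted p was under 0.05; the rRNAs stand at 2.16 and 1.29 in the upper panel and every mRNA is below 0, with the widest bar at mt-Atp6, 1 of 8 mRNA genes in the stretch copied on chromosome 1.

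The genes that varied most within groups lie in a stretch of mitochondrial sequence that has a near-identical copy in the nuclear genome. On chromosome 1, 7 annotated pseudogenes on the minus strand (24611535 to 24616197, GRCm38) were 99.71 to 100% identical over their aligned bases to 7 mitochondrial mRNA genes and in the same order, over mitochondrial positions 6381 to 11042. That stretch touches 8 of the mRNA genes and 5 of the tRNA genes, and the other 24 members lie outside it. It covers mt-Co1 and mt-Nd4 only in part, with 483 of 1545 bases aligned for mt-Co1 and 876 of 1378 for mt-Nd4. Of the 7 pairs, 5 had 0 mismatches in the alignment, and the other two had 1 mismatch each, over 345 aligned bases for Gm28438 and over 483 of the 492 bases of Gm29216. That base is shown in capitals in the following lines, 5′ to 3′.
mt-Co1, chrM:6390-6423, plus: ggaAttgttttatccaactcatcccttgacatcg
Gm29216, chr1:24616155-24616188, minus: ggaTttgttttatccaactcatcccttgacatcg
mt-Nd3, chrM:9459-9491, plus: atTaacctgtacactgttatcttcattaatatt
Gm28438, chr1:24613087-24613119, minus: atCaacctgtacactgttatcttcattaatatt
Reads that do not cover such a base cannot be assigned to one genome by their sequence. The share of the summed counts that had been given to the copy varied from library to library. For mt-Atp6 and its copy Gm10925 that share was 10.8 and 80.2% in stimulated KO, 65.5 and 21.1% in stimulated WT, 81.0 and 32.7% in PBS KO and 74.7 and 49.3% in PBS WT. For mt-Co3 and its copy Gm28437 it was 7.76 and 52.0% in stimulated KO, 31.8 and 34.7% in stimulated WT, 50.4 and 33.5% in PBS KO and 42.2 and 50.2% in PBS WT. In this share stimulated KO overlapped the other groups, and it was lower in stimulated KO replicate 1 than in replicate 2 for all 7 pairs. Stimulated WT lay below PBS WT for mt-Co3, mt-Nd3, mt-Nd4l, mt-Nd4 and mt-Co2, the last with 31.7 and 19.1% against 42.0 and 50.1%. For mt-Atp6 and mt-Co1 the WT groups overlapped. Where they did not, the stimulated over PBS WT values without the copies include this shift.

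**Figure D3:**
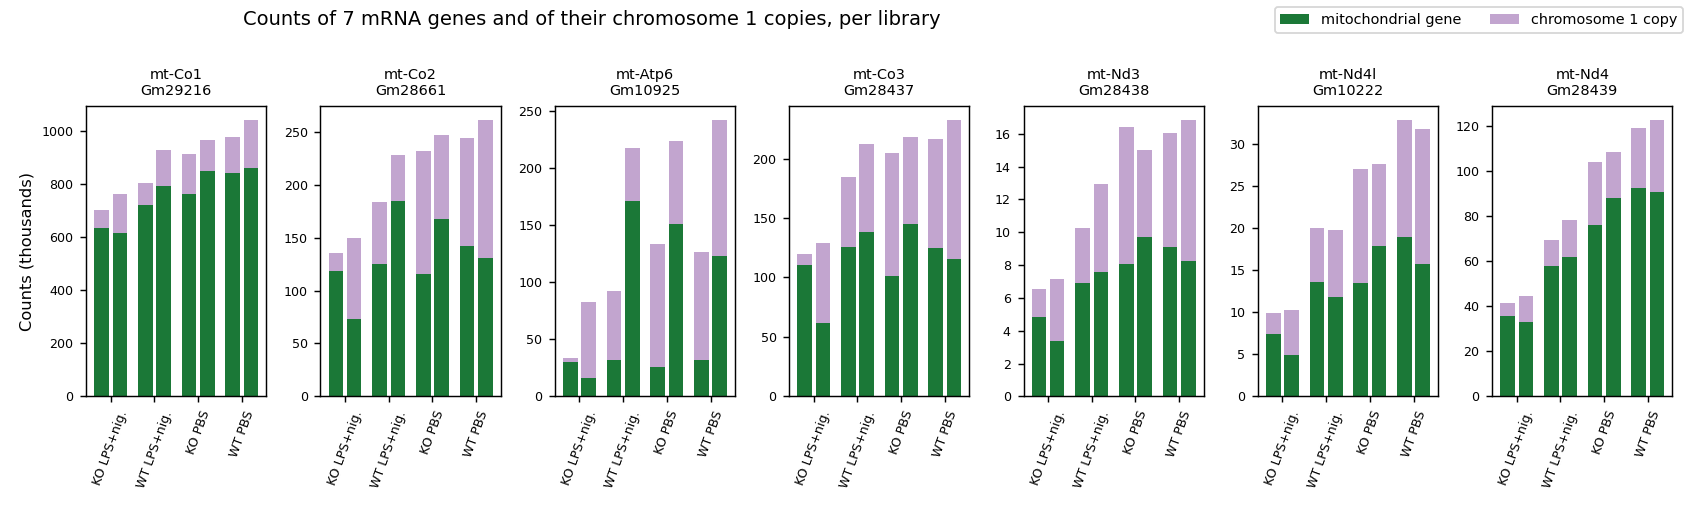
Counts (vertical axes) of mitochondrial genes and of their near-identical copies on chromosome 1, stacked per library and grouped by genotype and treatment. The lower part of a bar is the mitochondrial gene and the upper part its copy; for mt-Co3 the stimulated KO libraries have 110304 and 61850 counts in the gene but 119581 and 128940 in the sum.

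With each copy's counts added to its gene, a sum chosen after the data were seen, the standard errors of the copied genes became smaller and more mRNAs were called. The summed counts of mt-Co3 and its copy were 119581 and 128940 in stimulated KO, 184743 and 212157 in stimulated WT, 204567 and 218054 in PBS KO and 216093 and 232468 in PBS WT, so the stimulated KO libraries were again the lowest. For stimulated KO over stimulated WT, 11 of 13 mRNAs were then called lower in edgeR (2.07% of all genes), with mt-Co3 at -0.77 ± 0.07 (adjusted p = 0.00323), mt-Co2 at -0.62 ± 0.08 (adjusted p = 0.0117), mt-Nd4l at -1.07 ± 0.08 (adjusted p = 0.00188), mt-Nd3 at -0.85 ± 0.11 (adjusted p = 0.0109) and mt-Co1 at -0.33 ± 0.07 (adjusted p = 0.0392). mt-Atp6 and mt-Atp8 were the exceptions, at -1.53 ± 0.53 (adjusted p = 0.171) and -0.94 ± 0.33 (adjusted p = 0.172). mt-Atp8 lies within the copied stretch without an annotated copy of its own, and 21.1% of its 204 bases overlap mt-Atp6. For stimulated over PBS KO, 12 of 13 were called lower, all but mt-Atp8, where 19.0% of all genes were called lower. For stimulated over PBS WT, where 20.0% of all genes were called lower, the called mRNAs were mt-Cytb, mt-Nd4 and mt-Nd4l. The 13 mRNAs and the copies together took 2.37 and 2.23% of all counts in stimulated KO, 3.00 and 3.31% in stimulated WT, 3.85 and 3.91% in PBS KO and 3.59 and 3.85% in PBS WT. As a share of all counts the stimulated WT libraries lay below all PBS libraries and above both stimulated KO libraries, while with TMM scaling only the 3 mRNAs just named were called lower in WT. The 5 mRNAs outside the stretch, mt-Nd1, mt-Nd2, mt-Nd5, mt-Nd6 and mt-Cytb, needed no such sum, and all 5 were called lower in stimulated KO than in stimulated WT and in PBS KO.

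The composition of the 13 mRNAs shifted towards mt-Co1 in stimulated KO cells. With the copies added, mt-Co1 took 53.7 and 52.4% of the mRNA counts in stimulated KO, 45.5 and 42.8% in stimulated WT, 43.2 and 41.7% in PBS KO and 43.6 and 41.8% in PBS WT. The stimulated KO libraries were the 2 highest. mt-Cytb took 4.08 and 4.17% in stimulated KO, 5.39 and 5.17% in stimulated WT, 6.72 and 6.24% in PBS KO and 6.77 and 6.42% in PBS WT, so the stimulated WT libraries lay between the other stimulated group and the PBS groups. mt-Co2 took 10.4 and 10.3% in stimulated KO and 10.4 and 10.5% in stimulated WT, with 10.9 and 10.6% in PBS KO and 10.9 and 10.5% in PBS WT. These shares are a description, with no test.

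Per length, the order of the mRNAs in PBS WT cells was led by mt-Co1 at 8390 and 8392 CPM per kb. The next were mt-Co2 at 3185 and 2868, mt-Atp8 at 2737 and 2624, mt-Co3 at 2446 and 2222 and mt-Cytb at 2037 and 2106 CPM per kb. These 5 did not overlap, but the gap between mt-Co2 and mt-Atp8 was smaller than the spread of mt-Co2. mt-Nd1 followed at 1776 and 1960, and mt-Atp6, at 720 and 2713, spanned most of this order. mt-Nd6 (1031 and 1070), mt-Nd2 (989 and 1055) and mt-Nd4 (1032 and 991) overlapped one another, mt-Nd5 (911 and 932) and mt-Nd4l (979 and 799) came after them, and mt-Nd3 was lowest at 401 and 357 CPM per kb. In stimulated KO cells mt-Co1 was still first, at 7445 and 6093 CPM per kb, while mt-Cytb, at 845 and 810 CPM per kb, was below mt-Rnr1. These levels leave out what was counted on chromosome 1, and the order changes when it is added. In PBS WT, mt-Co3 then reached 4230 and 4460 CPM per kb, above mt-Atp8, and mt-Nd4l reached 1697 and 1606 CPM per kb, above mt-Nd6 and mt-Nd2 and above mt-Nd4 with its copy at 1329 and 1341. mt-Co1 stayed first, at 9714 and 10160 CPM per kb with its copy.

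Among the tRNA genes, the 5 between mt-Nd2 and mt-Co1 had one pattern, lowest in stimulated WT and next lowest in stimulated KO, although the difference between the KO and WT responses did not pass the test for any of them. mt-Tn, the asparagine tRNA gene, had 7.13 and 7.69 CPM in stimulated KO, 2.56 and 3.25 CPM in stimulated WT, 12.9 and 18.8 CPM in PBS KO and 11.9 and 14.1 CPM in PBS WT. mt-Ta, for alanine, had 4.79 and 4.89 CPM in stimulated KO, 1.76 and 2.08 CPM in stimulated WT, 8.56 and 12.6 CPM in PBS KO and 7.80 and 9.05 CPM in PBS WT. In both genes the stimulated WT libraries were lowest, the stimulated KO libraries lay between, and the PBS libraries of the genotypes overlapped. For stimulated over PBS WT the log2 fold change was -2.16 ± 0.22 for mt-Tn (adjusted p = 0.000332), -2.13 ± 0.22 for mt-Ta (adjusted p = 0.000334) and -2.16 ± 0.23 for mt-Tc (adjusted p = 0.000377). mt-Ty at -1.84 ± 0.28 (adjusted p = 0.00208) and mt-Tw at -1.63 ± 0.34 (adjusted p = 0.00872) fell as well, and these 5 were all the tRNA genes called in WT. Being 5 of 22 tRNA genes, they are close to the 20.0% of all tested genes called lower there.

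In KO cells stimulation lowered 3 of the 5, and 7 of all 22 tRNA genes, where 19.0% of all tested genes were called lower. For stimulated over PBS KO, mt-Ta was at -1.13 ± 0.21 (adjusted p = 0.00523), mt-Tn at -1.10 ± 0.21 (adjusted p = 0.00625) and mt-Tc at -0.86 ± 0.22 (adjusted p = 0.0179). mt-Tw at -0.67 ± 0.32 (adjusted p = 0.151) and mt-Ty at -0.60 ± 0.27 (adjusted p = 0.124) did not pass. Set against each other after stimulation, KO was higher than WT by 1.44 ± 0.23 for mt-Tc (adjusted p = 0.0199), 1.35 ± 0.22 for mt-Tn (adjusted p = 0.0219), 1.33 ± 0.22 for mt-Ta (adjusted p = 0.0222) and 1.43 ± 0.28 for mt-Ty (adjusted p = 0.0392), with mt-Tw at 1.30 ± 0.35 (adjusted p = 0.0898). Of all tested genes, 2.91% were called higher in that comparison. All 4 tRNA calls were lost in some of the fits that left out 1 library. Those of mt-Ta and mt-Tn were lost without any one of the stimulated libraries (up to 0.106), that of mt-Tc without either stimulated KO library or stimulated WT replicate 1 (up to 0.100), and that of mt-Ty without any library but stimulated WT replicate 2 (up to 0.162). The KO call of mt-Tc was lost without PBS KO replicate 2 or either stimulated KO library (up to 0.103). The KO minus WT difference in response ran from 0.96 ± 0.47 for mt-Tw to 1.29 ± 0.31 for mt-Tc (adjusted p = 0.18), although 4 of the 5 had an unadjusted p under 0.05. DESeq2 and limma-voom called 0 of the 22 tRNA genes in that difference.

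Together the 5 genes held 972 and 1226 counts in stimulated KO, 337 and 460 in stimulated WT, 1784 and 2628 in PBS KO and 1843 and 2122 in PBS WT. They made up 40.1 and 41.5% of the tRNA counts in stimulated KO, 18.2 and 19.5% in stimulated WT, 43.8 and 50.8% in PBS KO and 46.9 and 46.4% in PBS WT. The 5 were grouped with the data known, and they are the same tRNA genes that were called lower in WT. Their low share in stimulated WT therefore follows in part from that choice. The labels do not state whether the libraries kept strand, so transcripts of the minus-strand tRNA genes and RNA from the opposite strand at the same positions cannot be told apart. The flanking mRNA mt-Nd2 had 646 and 609 CPM in stimulated KO and 1032 and 1174 CPM in stimulated WT, the opposite order. A stretch of the Cep295 transcript on a nuclear chromosome was 84.1 to 91.5% identical to 4 of the 5 tRNA genes, and Cep295 had 896 and 1241 counts in stimulated KO against 1226 and 1146 in stimulated WT.

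**Figure D4:**
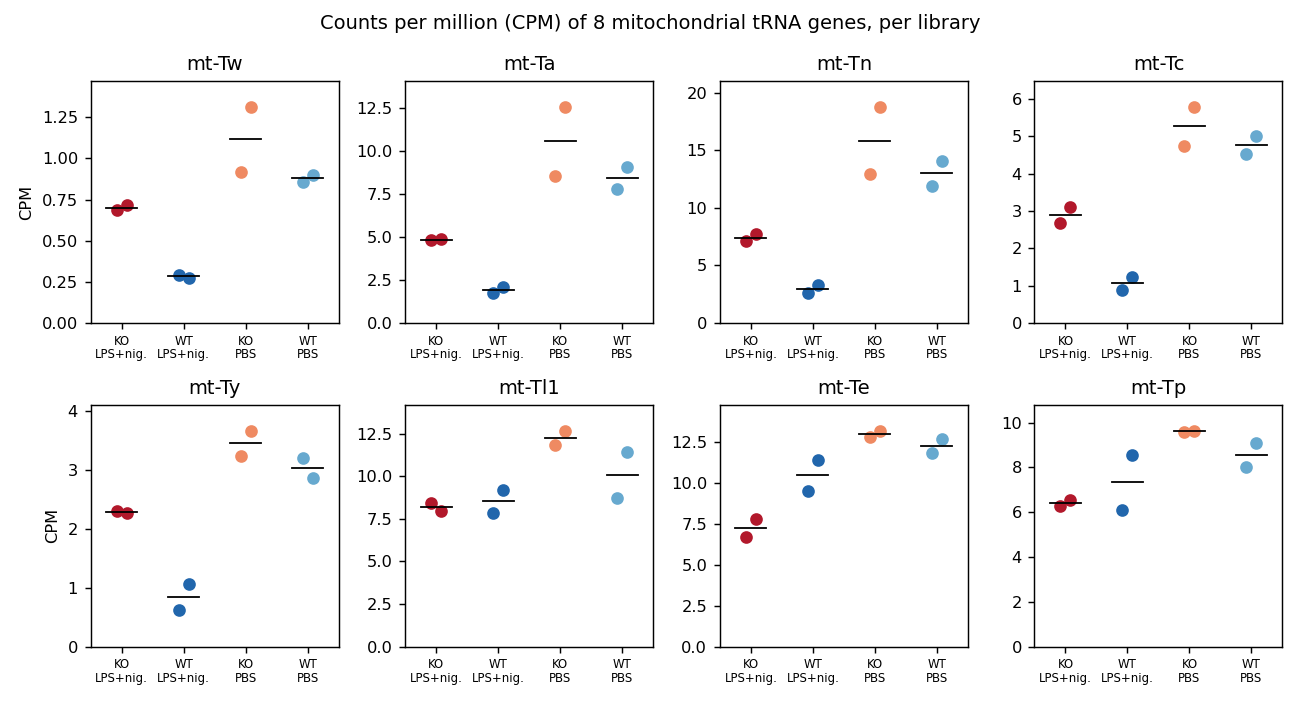
CPM (vertical axes, each starting at 0) of 8 tRNA genes in each library: the 5 genes between mt-Nd2 and mt-Co1, and mt-Tl1, mt-Te and mt-Tp from elsewhere. Points are libraries and lines group means; in the 5 neighbouring genes stimulated WT is lowest, with mt-Tn at 2.56 and 3.25 CPM, whereas mt-Te is lowest in stimulated KO, at 6.68 and 7.79 CPM.

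Other tRNA genes with enough counts behaved differently from these 5. mt-Te, the glutamate tRNA gene on the minus strand beside mt-Nd6, had 6.68 and 7.79 CPM in stimulated KO, 9.51 and 11.4 CPM in stimulated WT, 12.8 and 13.2 CPM in PBS KO and 11.9 and 12.7 CPM in PBS WT. Like the mRNAs, it was lowest in stimulated KO, and it fell by 0.84 ± 0.14 in KO with stimulation (adjusted p = 0.00296). mt-Tl1, the leucine tRNA gene after mt-Rnr2, had 8.45 and 7.94 CPM in stimulated KO, 7.86 and 9.22 CPM in stimulated WT, 11.8 and 12.7 CPM in PBS KO and 8.70 and 11.4 CPM in PBS WT, and the stimulated genotypes overlapped. mt-Tl1 at -0.58 ± 0.16 (adjusted p = 0.028) and the proline tRNA gene mt-Tp at -0.59 ± 0.18 (adjusted p = 0.0379) were called lower in stimulated than in PBS KO, and both calls were lost without any one of the 4 KO libraries (up to 0.129 for mt-Tl1 and 0.149 for mt-Tp). mt-Tp was also lost without either PBS WT library.

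The remaining tRNA genes were close to the lower limit of these libraries. No library held more than 90 counts of any of 15 tRNA genes, and those 15 supplied 8.80% of the 27344 tRNA counts of the 8 libraries. The 8 minus-strand tRNA genes supplied 74.9%, and 6 of the 7 tRNA genes that passed 90 counts in some library were on that strand, with mt-Tl1 as the exception. mt-Ts2, a serine tRNA gene, was called lower in stimulated than in PBS KO at -4.26 ± 1.38 (adjusted p = 0.0473) on 1 and 1 counts in stimulated KO against 20 and 23 in PBS KO. Since PBS WT had 1 and 14 counts of it, this call rests on few reads, and it was lost without any one of the KO or stimulated WT libraries (up to 0.186). mt-Tg, the glycine tRNA gene, had 38 and 29 counts in stimulated KO, 9 and 9 in stimulated WT, 43 and 54 in PBS KO and 12 and 10 in PBS WT. All 4 KO libraries were above all 4 WT libraries, at 1.81 ± 0.49 after stimulation (adjusted p = 0.0923) and 2.24 ± 0.48 with PBS (adjusted p = 0.0888). It lies in the copied stretch between mt-Co3 and mt-Nd3.

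With PBS, KO and WT cells did not differ in any member by edgeR's test, where 1.55% of all tested genes were called, 1.2% higher and 0.355% lower. The median log2 fold change was 0.15 over the 37 genes and 0 over all genes. mt-Tg was the 1 member with an unadjusted p under 0.05, it was the 1 member called by DESeq2, and limma-voom called 0. The rRNAs were at 0.14 ± 0.08 for mt-Rnr1 (adjusted p = 0.484) and -0.032 ± 0.091 for mt-Rnr2 (adjusted p = 0.922), and the mRNAs lay between -0.04 and 0.28.

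The response to LPS and nigericin itself differed between the genotypes for 6 members, 2 with a positive and 4 with a negative difference, where 0.498% of all tested genes were called, 0.103% positive and 0.395% negative. The medians were -0.40 over the 37 genes and -0.0023 over all genes. The KO minus WT difference in log2 response was 2.03 ± 0.12 for mt-Rnr1 (adjusted p = 0.00268) and 1.32 ± 0.13 for mt-Rnr2 (adjusted p = 0.0141). It was -0.95 ± 0.10 for mt-Cytb (adjusted p = 0.0161), -0.88 ± 0.09 for mt-Nd6 (adjusted p = 0.0161), -0.79 ± 0.09 for mt-Nd5 (adjusted p = 0.0203) and -0.86 ± 0.11 for mt-Nd2 (adjusted p = 0.0357). The mt-Rnr1 call held in each of the 8 fits without 1 library, and that of mt-Rnr2 was lost without either stimulated KO library (up to 0.0754). The 4 mRNA calls were lost without any one of the KO or PBS WT libraries (up to 0.140), and those of mt-Nd2 and mt-Nd5 also without stimulated WT replicate 2. With the copies added, mt-Co3, mt-Nd4 and mt-Nd4l were called too, for 7 negative differences against 0.424% of all genes.

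The lists of nuclear genes described next were drawn up with earlier results of these data known. Of 115 nuclear genes in 5 lists that bear on mitochondrial RNA and turnover, 6 were called between the stimulated genotypes, which is 5.22% against 4.92% of all tested genes. Of 23 genes of mitochondrial transcription and replication, 0 were called higher or lower in stimulated KO than in stimulated WT by edgeR, with 3 at an unadjusted p under 0.05, and DESeq2 called 2 and limma-voom 1. Polrmt, the mitochondrial RNA polymerase, was at -0.26 ± 0.09 (adjusted p = 0.163), Tfam, which packages mitochondrial DNA and starts transcription, at -0.06 ± 0.12 (0.859), the elongation factor Tefm at 0.73 ± 0.17 (0.0611) and the initiation factor Tfb2m at -0.17 ± 0.12 (0.531). Of 23 genes of RNA processing, stability and decay 0 were called by edgeR, with 4 at an unadjusted p under 0.05, and DESeq2 called 1 and limma-voom 0. Lrpprc was at 0.02 ± 0.07 (adjusted p = 0.948) and its partner Slirp at 0.07 ± 0.31 (0.944), a pair that stabilises mitochondrial mRNAs. The exonuclease gene Pnpt1 was at -0.07 ± 0.09 (0.741), the helicase gene Supv3l1 at -0.07 ± 0.16 (0.886) and the poly(A) polymerase gene Mtpap at 0.16 ± 0.11 (0.47). Elac2, which cuts at tRNA 3′ ends, was at -0.13 ± 0.09 (0.506), and Trmt10c, a subunit of mitochondrial RNase P, was at 0.08 ± 0.11 (0.77). Of 26 genes of RNA modification, 1 was lower, Mrm1, a 16S rRNA methyltransferase, at -0.58 ± 0.11 (adjusted p = 0.0372). Of 22 aminoacyl-tRNA synthetase genes, 1 was lower, Gars, which charges glycine tRNA in cytosol and mitochondria, at -0.54 ± 0.10 (adjusted p = 0.0307).

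Of these 6 calls, 4 were among the 21 genes of mitochondrial biogenesis and mitophagy, with 1 higher and 3 lower. Sqstm1, the autophagy receptor p62, was at -1.11 ± 0.08 (adjusted p = 0.00178), the mitophagy receptor gene Bnip3l at -0.55 ± 0.06 (adjusted p = 0.00772) and the kinase gene Pink1 at -0.54 ± 0.07 (adjusted p = 0.0122), while Bnip3 was at 0.46 ± 0.09 (adjusted p = 0.0364). Pink1 was also lower in PBS KO than in PBS WT, at -0.48 ± 0.07 (adjusted p = 0.032).

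With stimulation, 57 of the 115 genes were called in KO, which is 49.6% against 39.1% of all tested genes, and 48 in WT, which is 41.7% against 40.5%; the WT share is close to that of all genes. In processing and decay, 10 of 23 rose and 2 fell in KO, and 8 rose and 2 fell in WT. Pnpt1 rose by 1.07 ± 0.09 in KO (adjusted p = 0.000151) and by 1.14 ± 0.09 in WT (0.000114), and Slirp by 1.499 ± 0.314 in KO (0.00859) and by 1.22 ± 0.31 in WT (0.0193). Lrpprc rose by 0.29 ± 0.07 in KO (adjusted p = 0.0172), with 0.14 ± 0.07 in WT (0.164). In transcription and replication, 3 of 23 rose and 7 fell in KO, and 3 rose and 5 fell in WT. Polrmt fell by 0.32 ± 0.09 in KO (adjusted p = 0.025), with -0.19 ± 0.09 in WT (0.137), and Tfam was at 0.11 ± 0.12 in KO (0.523) and 0.12 ± 0.12 in WT (0.469). Tfb1m, which methylates the 12S rRNA, rose by 1.23 ± 0.18 in KO (adjusted p = 0.00163) and by 1.26 ± 0.18 in WT (0.00152). RNA modification had 7 of 26 higher and 2 lower in KO and 6 higher and 1 lower in WT, the synthetases had 8 of 22 higher and 1 lower in KO and 7 higher and 0 lower in WT, and biogenesis and mitophagy had 6 of 21 higher and 11 lower in KO and 6 higher and 10 lower in WT. Pink1 fell by 2.07 ± 0.08 in KO (adjusted p = 3.39e-06) and by 2.01 ± 0.08 in WT (3.66e-06). For none of these 5 lists does a count called in one genotype and not in the other show that the responses differ, and of all 115 genes Sqstm1 alone passed the test of that difference.

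The nuclear subunits of the respiratory chain went the other way from the mitochondrial mRNAs in stimulated KO cells. Of 36 nuclear subunits of complex I, 29 rose and 0 fell in stimulated over PBS KO, with a median of 0.60, where 20.2% of all tested genes were higher and 19.0% lower, while all 7 mitochondrial mRNAs of that complex fell, with a median of -0.97. In WT, 26 of the 36 rose and 0 fell, with a median of 0.61, where 20.6% of all genes were higher and 20.0% lower, beside a median of -0.09 and 1 call among the 7 mitochondrial mRNAs. Complex III had 6 of 9 nuclear subunits higher in KO and 6 in WT, complex IV 9 of 11 in KO and 9 in WT, and complex V 14 of 15 in KO and 13 in WT, with 0 lower in either genotype. Between stimulated KO and stimulated WT, 0 of the 71 nuclear subunits were called by edgeR, DESeq2 or limma-voom, and 6 had an unadjusted p under 0.05.

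**Figure D5:**
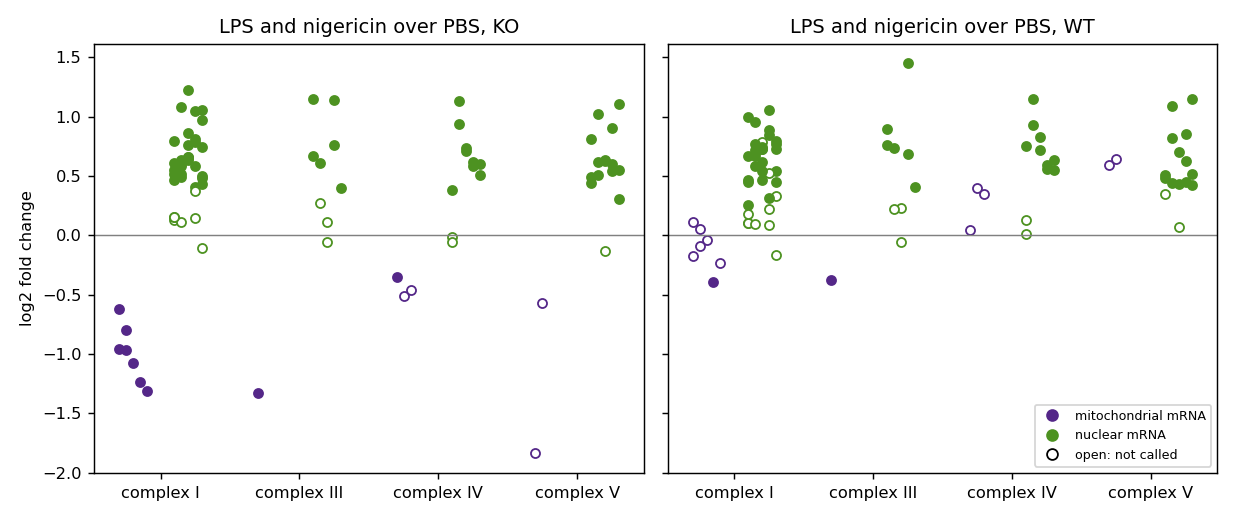
Log2 fold change of stimulated over PBS cells (vertical axis) for mitochondrially encoded and nuclear subunits of complexes I, III, IV and V, with KO in the left panel and WT in the right. Each point is 1 gene, filled where edgeR's adjusted p was under 0.05; in KO the 7 mitochondrial mRNAs of complex I centre on -0.97 and the 36 nuclear ones on 0.60.

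Some markers of other cells differed between the stimulated genotypes, and some of those differed with PBS as well. The 10 fibroblast and stromal markers summed to 527 and 466 CPM in stimulated KO, 200 and 188 CPM in stimulated WT, 482 and 511 CPM in PBS KO and 311 and 328 CPM in PBS WT. Of the 10, 8 were called higher and 0 lower in stimulated KO than in stimulated WT, 3 were called higher in PBS KO than in PBS WT, and none was at 0 in any library. Of all tested genes, 2.91% were called higher and 2.01% lower between the stimulated genotypes, and 1.2% higher in KO with PBS. Of the 12 macrophage markers, 0 were called higher and 4 lower in stimulated KO than in stimulated WT, one of them Lyz2. For that 0, edgeR had 3 higher at an unadjusted p under 0.05, DESeq2 called 1 and limma-voom 0. The 8 B and plasma cell markers summed to 3.58 and 3.74 CPM in stimulated KO and 0.800 and 0.757 CPM in stimulated WT, and of the 4 with enough counts to be tested 2 were called higher. Their sums were already apart with PBS, at 2.55 and 2.58 CPM in KO and 0.414 and 0.557 CPM in WT, with 1 called higher. The 10 T and NK cell markers summed to 5.16 and 5.43 CPM in stimulated KO and 6.67 and 5.32 CPM in stimulated WT. With PBS they summed to 16.0 and 21.2 CPM in KO and 16.7 and 15.1 CPM in WT. The 10 neutrophil and precursor markers summed to 33.7 and 30.4 CPM in stimulated KO and 28.1 and 35.5 CPM in stimulated WT. Their PBS sums were 6.16 and 6.41 CPM in KO and 4.10 and 4.30 CPM in WT. Cd3e of the T and NK list and Ly6g of the neutrophil list were at 0 in every library. Transcripts that stay in the nucleus, a sign of RNA quality, gave 0 of 11 called between the stimulated genotypes in edgeR, with 3 at an unadjusted p under 0.05, and DESeq2 called 1 and limma-voom 0. Their sum was 532 and 545 CPM in stimulated KO and 900 and 494 CPM in stimulated WT. The part of these markers in the rRNA, mRNA and tRNA results was not tested.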

How the data were processed

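Total RNA of 8 libraries was sequenced after preparation with the Fast RNA-seq Lib Prep Kit V2, per the labels' protocols. The submitters' processing notes name Trimmomatic, Bowtie2, edgeR and the mm10 genome, without versions or roles, and no source used here names the counting tool, the annotation or the handling of strand and of reads with several matches. The authors deposited whole-number read counts per Ensembl gene, not normalized. Symbols, positions, lengths and sequences came from GENCODE M21 (GRCm38), which matched 55141 of 55401 gene IDs. In R 4.3.3, edgeR 4.0.16 fitted all 8 libraries with 1 coefficient per group, TMM scaling and filterByExpr (minimum count 10, minimum total 15), which left 4 residual degrees of freedom and a common biological coefficient of variation of 0.215. The quasi-likelihood test gave p-values, adjusted by Benjamini-Hochberg over the 17470 genes tested and called under 0.05. Each SE was obtained by dividing a log2 fold change by the square root of its F statistic. CPM are counts per 1000000 of the TMM-scaled library, and between genes they are given per kb of annotated length.

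BLAST 2.17.0 compared the 37 transcripts with all GENCODE M21 transcripts. Alternatives were other scalings and filters, a replicate block, the groups compared alone, DESeq2 1.42.0, limma-voom (limma 3.58.1), each library left out, and the nuclear copies added; the last was chosen after seeing the data for the calls. Same-numbered libraries deviated together little or not at all (correlations of -0.015 to 0.101), and the main fit did not pair them. These values cannot exclude that a number marks a shared mouse or culture. The edgeR step was tested on simulated counts. All 37 genes may be named by the rule used. Of each nuclear list, up to 4 called genes with the smallest adjusted p per comparison were eligible, besides the 11 transcription and processing genes given throughout. The members and lists were chosen with earlier results of these data known.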

Additional observations from a re-analysis of the deposited data

Results flagged for a closer look

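For 6 genes the test of the difference between the KO and WT responses to LPS and nigericin was itself past the threshold in edgeR, which is why they are listed here. The KO minus WT difference in log2 response was 2.03 for mt-Rnr1 and 1.32 for mt-Rnr2, with both KO libraries up on stimulation. It was -0.95 for mt-Cytb, -0.88 for mt-Nd6, -0.86 for mt-Nd2 and -0.79 for mt-Nd5, all 4 of them mRNA genes outside the stretch copied on chromosome 1. In the same test of responses, 2 of 10 fibroblast and stromal markers and 1 of 12 macrophage markers were higher, against 0.103% of all tested genes. Their part in the 6 differences was not tested.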

How the results depend on the processing

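None of the 44 calls changed direction under any of the 18 settings tried. Another scaling (DESeq2 size factors, library size alone, or nuclear genes alone) kept all 44, no low-count filter kept 42, and DESeq2 kept 44. Limma-voom kept 41, the groups compared alone 35 of the 38 possible, and leaving out 1 library 29 to 38. The groups compared alone called 2 members higher in stimulated than in PBS WT cells, and DESeq2 called 1 higher in PBS KO than in PBS WT. Between the stimulated genotypes 11 members were lower with the nuclear copies added and 11 with DESeq2, and the copies gave 7 lower in the difference of responses. Leaving out 1 library gave 0 to 1 higher and 7 to 8 lower in WT, 2 higher and 11 to 17 lower in KO, 2 to 5 higher and 5 to 9 lower between stimulated genotypes, 0 with PBS, and 1 to 2 positive and 0 to 4 negative differences of responses.

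Shares of counts depend on the denominator. Over the TMM-scaled library the log2 ratio of mean shares was -0.23 for rRNA in stimulated over PBS WT, 1.37 in stimulated over PBS KO and 1.65 in stimulated KO over stimulated WT. For stimulated over PBS WT it was 0.078 for mRNA, -0.80 for tRNA and 0.070 for all members, against -0.11, -0.98 and -0.12 over the raw total, so the mRNA and all-member directions in WT turned with the scaling. With the copies added, the same WT ratio was -0.24 for mRNA and -0.24 for all members, and the share of mt-Cytb within the mRNAs gave -0.32.

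Library size alone moved the median of all genes by -0.20 in WT, -0.11 in KO, 0.13 between stimulated genotypes and 0.10 in the difference of responses, and with it the counts of some nuclear lists. Between stimulated genotypes it called 0 modification genes lower, 1 synthetase gene higher, 2 biogenesis and mitophagy genes higher, 2 transcription genes higher, and 2 subunits of complex I and 1 of complex III higher. In WT it called 4 modification, 5 processing and 5 synthetase genes and 1 complex I subunit lower, and 3 biogenesis and 1 transcription genes higher. In KO it called 3 synthetase genes lower, and with PBS 1 transcription gene higher.

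The replicate block kept 41 of the 44 calls and gave 0 higher and 8 lower in WT, 2 and 15 in KO, 5 and 6 between stimulated genotypes, 0 with PBS, and 2 positive and 3 negative differences. Whether the numbers share more than a label is not known. With 2 libraries a group, few counts limit 15 of the 22 tRNA genes.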

Other observations

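Among RNA classes outside the mitochondrial genome, the 1507 annotated snoRNA genes summed to 26.2 and 27.8 CPM in stimulated KO, 32.2 and 31.5 CPM in stimulated WT, 21.2 and 19.4 CPM in PBS KO and 21.8 and 21.9 CPM in PBS WT. The stimulated libraries were above the PBS libraries in both genotypes, and stimulated KO lay between. Rn7sk, the nuclear RNA that holds back elongation factor P-TEFb, fell by 4.66 ± 0.31 on the log2 scale in stimulated over PBS KO (adjusted p = 4.09e-05, edgeR) and by 3.43 ± 0.30 in stimulated over PBS WT (adjusted p = 0.000143).

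The synthetase and mitophagy genes that differed between the stimulated genotypes had unlike histories. Gars was raised by stimulation in both genotypes, at 0.64 ± 0.10 in KO (adjusted p = 0.00214) and 1.19 ± 0.10 in WT (adjusted p = 0.000119). Sqstm1 was raised in WT at 1.28 ± 0.08 (adjusted p = 3.91e-05), with 0.24 ± 0.08 in KO (adjusted p = 0.0609), and its KO minus WT difference in response was -1.04 ± 0.12 (adjusted p = 0.023). Bnip3l fell in both, by 0.98 ± 0.07 in KO (adjusted p = 3.98e-05) and by 0.67 ± 0.06 in WT (adjusted p = 0.000242).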
